A study of Mus musculus with 7 samples.

Results

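Tyrobp, Fcer1g, Cd52, Srgn, Rac2, Laptm5, Coro1a and Ptprc were followed as 8 genes that white blood cells of most lineages transcribe. They were chosen by symbol, and all 8 are among the 11753 genes of the table of experiment (ii). The cells came from PyMT mice, whose mammary epithelium forms tumours under a viral oncogene (polyoma middle T), and were read by CEL-seq, which counts 3' ends with molecular barcodes. A transcript therefore counts once whatever its length, and levels of different genes are compared here on the scale of transcripts per 10000 transcripts of a sum or well. In experiment (ii), 220 of 312 wells held at least 500 transcripts: 20 BEpos wells (BEp-labelled, circulating tumour cells sorted as E-cadherin positive), 60 BEneg wells (BEn-labelled, the same sorted as E-cadherin negative), 69 TEneg wells (TEn-labelled, solid tumour, E-cadherin negative) and 71 TEpos wells (TEp-labelled, solid tumour, E-cadherin positive). BEneg, TEneg and TEpos wells were in each of 4 libraries and BEpos wells in library 1 only. Experiment (i) comprised 3 libraries labelled E-cadherin positive tumour cells. The labels give no age, strain or number of mice, and no treatment beyond the transgene.

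Leukocytes pass signals from many surface receptors through small adaptor proteins with tyrosine motifs (ITAMs). Tyrobp and Fcer1g are such adaptors: Tyrobp serves activating receptors of myeloid and natural killer cells, and Fcer1g is the shared gamma chain of Fc receptors. Downstream, small GTPases and actin regulators such as Rac2 and Coro1a turn the signal into movement, and lysosomal Laptm5 limits surface receptor levels in lymphocytes.

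The blood wells, labelled as tumour cells, held far more leukocyte than epithelial transcripts. An epithelial list (8 genes, with Cdh1, which encodes E-cadherin) stood at 0.93 per 10000 in BEpos (6 of 20 wells) and 10.1 in BEneg (36 of 60 wells), against 29.1 in TEneg and 52.3 in TEpos (means of libraries). A luminal mammary list stood at 12.5 in BEpos and 68.5 in BEneg, where all 60 wells held some, against 262 in TEneg and 462 in TEpos. In blood much of it was Lcn2, with 48 of 94 luminal transcripts in BEpos and 242 of 508 in BEneg. Lcn2 supplied 2061 of 5917 in TEneg and 2339 of 8684 in TEpos. The milk gene Csn3 was found in 31 of the 60 BEneg wells. A list of 16 myeloid genes, 15 of them measured, stood at 240 in BEpos and 1045 in BEneg, against 40.8 in TEneg and 36.7 in TEpos. A T and NK cell list stood at 49.4 in BEpos and 3.14 in BEneg, and a B cell list at 21.9 in BEpos and 0.61 in BEneg. Of the 20 BEpos wells, 18 had at least 2 T and NK transcripts, 11 at least 2 B transcripts and 9 at least 2 of both, and 6 of these 9 also held at least 10 myeloid transcripts. A BEpos well is therefore not read as 1 cell of 1 lineage here. Sums held 75125 transcripts in BEpos, 11172 to 25379 in BEneg, 17189 to 109892 in TEneg and 27416 to 71894 in TEpos, and the median well held 3803, 819, 1603 and 2064 transcripts in BEpos, BEneg, TEneg and TEpos.

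Promoters of Fcer1g and Laptm5 are shown because these genes differ in the comparison within blood described further on, where the level of Fcer1g was lower in BEpos than in BEneg wells and that of Laptm5 did not differ beyond counting error. RefSeq promoter windows of build GRCm38.p6 matched 5 of the 8 genes. Fcer1g lies at chr1:171229572-171234365 on the minus strand and its window at chr1:171234300-171234599. Laptm5 lies at chr4:130913125-130936141 on the plus strand and its window at chr4:130913066-130913365. Capitals mark AGGAAG on either strand (CTTCCT on the other), a core that ETS family factors such as PU.1 recognise.
Fcer1g: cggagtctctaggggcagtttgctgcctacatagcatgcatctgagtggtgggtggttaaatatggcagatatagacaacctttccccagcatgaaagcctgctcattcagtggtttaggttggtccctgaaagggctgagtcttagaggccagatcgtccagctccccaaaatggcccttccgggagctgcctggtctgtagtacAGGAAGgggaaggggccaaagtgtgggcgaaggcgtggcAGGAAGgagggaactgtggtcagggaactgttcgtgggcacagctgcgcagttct
Laptm5: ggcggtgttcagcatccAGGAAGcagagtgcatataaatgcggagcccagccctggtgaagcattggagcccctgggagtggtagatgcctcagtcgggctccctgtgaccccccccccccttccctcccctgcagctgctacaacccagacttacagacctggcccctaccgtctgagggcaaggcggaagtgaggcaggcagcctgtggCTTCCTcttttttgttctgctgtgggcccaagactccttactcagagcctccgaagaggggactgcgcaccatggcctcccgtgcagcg
Both windows held 2 matches, and 35.4% of all 32851 windows of the same length, 300 bases, held at least 1. The 2 Ptprc windows held 3 and 1 matches, the 2 Coro1a windows 0 and 1, and both Srgn windows 0. No position here was tested for binding. The other genes lie at chr7:30413760-30417585 (Tyrobp, plus strand), chr4:134082448-134095082 (Cd52, minus), chr10:62493833-62527451 (Srgn, minus), chr15:78559167-78572783 (Rac2, minus), chr7:126699773-126707787 (Coro1a, minus) and chr1:138062861-138175708 (Ptprc, minus).

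All 80 blood wells held transcripts of the set, and 7 of the 8 genes were present in both blood populations. The 8 genes together supplied 1.03% of transcripts in BEpos (1 library) and 1.48% ± 0.38 in BEneg, against 0.075% ± 0.038 in TEneg and 0.056% ± 0.025 in TEpos (SD over libraries, n = 4). A BEpos well held 4 to 7 of the genes (median 7) and a BEneg well 3 to 7 (median 6), whereas the median was 1 in TEneg and 1 in TEpos wells. The adaptor Tyrobp and the surface glycoprotein Cd52 were the widest markers: Cd52 was found in 78 of the 80 blood wells (97.5%) and Tyrobp in 74 (92.5%), and every blood well held 1 or the other. Of the 140 tumour wells, 61 (43.6%) also held 1 or the other, so a single transcript of the pair does not single out a blood well. This pair was picked after its values were seen, and Fcer1g with Cd52 covered all 80 blood wells as well.

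**Figure D1:**
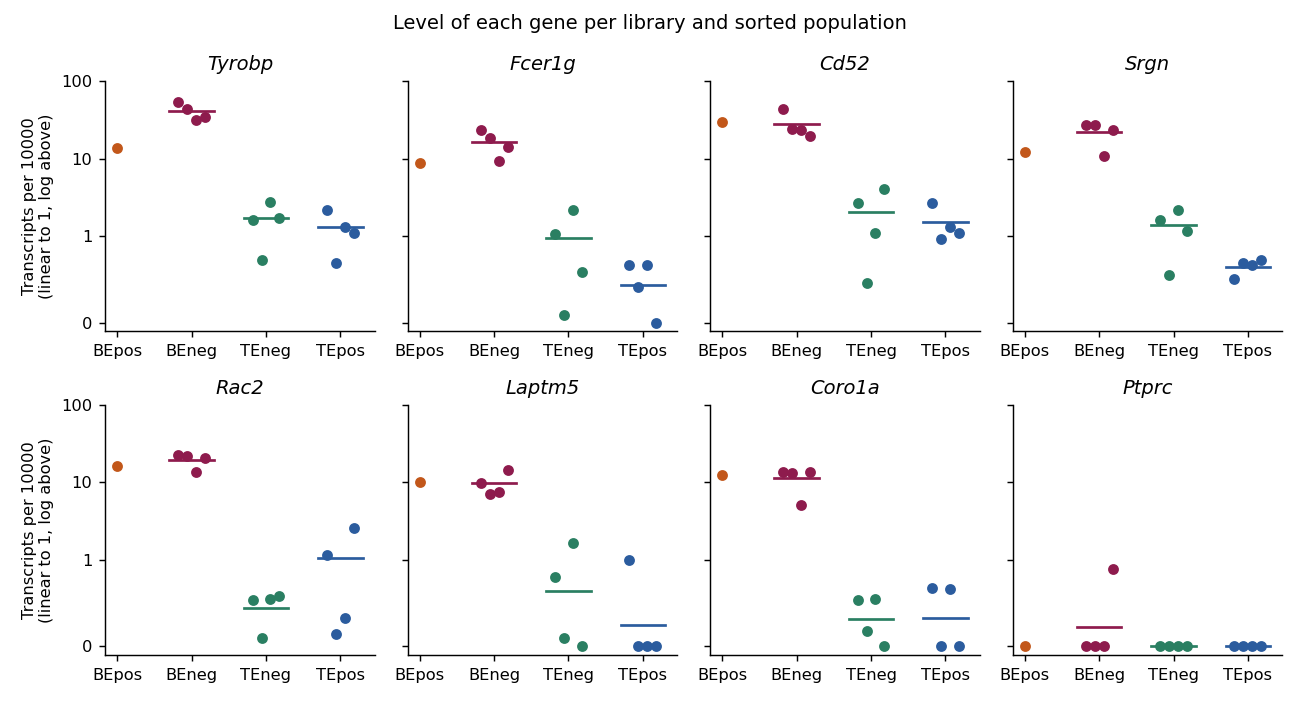
Transcripts per 10000 of each gene (vertical axis, linear up to 1 and logarithmic above) in each library (points) of the sorted populations, with the mean of 4 libraries as a line. For Tyrobp to Coro1a every BEneg point lies above every TEneg and TEpos point, and Ptprc is at 0 in all sums but 1. The former passed a filter on low counts through their BEneg sums, so this separation supports nothing by itself.

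Among the adaptors, Tyrobp had the highest level of the 8 genes in BEneg. It reached 53.8, 44.1, 31.2 and 34 transcripts per 10000 in BEneg libraries 1 to 4, against 1.61, 0.73, 2.75 and 1.75 in TEneg and 2.18, 0.70, 1.33 and 1.09 in TEpos. The lowest BEneg library was above every tumour library. Tyrobp was higher in BEneg than in TEneg by 5.16 ± 0.31 (log2, SE; edgeR quasi-likelihood adjusted p = 1.76e-13) and than in TEpos by 5.31 ± 0.30 (adjusted p = 2.62e-14), in 4 of 4 libraries each. Fcer1g reached 23.2, 18.5, 9.26 and 14.3 per 10000 in BEneg, against 1.07, 0.091, 2.20 and 0.58 in TEneg and 0.67, 0.42, 0.66 and 0 in TEpos. Its BEneg libraries spanned more than a doubling and still stood clear of the tumour libraries. The log2 difference was 4.94 ± 0.51 over TEneg (adjusted p = 7.02e-09) and 5.44 ± 0.50 over TEpos (adjusted p = 6.70e-10). Over TEneg it was 3.97 without library 2 and 5.74 without library 3.

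The surface proteins Cd52, a short glycosylphosphatidylinositol-anchored glycoprotein, and Ptprc, the CD45 phosphatase that defines leukocytes in flow cytometry, gave opposite readings. Cd52 stood at 44, 24, 23.6 and 19.7 per 10000 in BEneg, against 2.68, 0.45, 1.10 and 4.07 in TEneg and 2.68, 0.97, 1.33 and 1.09 in TEpos. It had the highest tumour mean of the 8 genes, and still did not overlap between BEneg and tumour libraries. Its log2 difference was 4.37 ± 0.36 over TEneg (adjusted p = 1.08e-10) and 4.53 ± 0.34 over TEpos (adjusted p = 1.54e-11). Ptprc was listed with 1 transcript, in BEneg library 4, and with 0 in all other sums of experiment (ii). A count of 0 allows up to 0.40 per 10000 in BEpos, 0.16 in TEneg and 0.16 in TEpos (3 counts over all wells), and up to 15% of BEpos wells with a transcript. In these libraries the gene that names leukocytes at the protein level therefore marked 1 of 80 blood wells.

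Srgn encodes serglycin, the core proteoglycan of secretory granules. It reached 26.9, 26.8, 10.9 and 23.3 per 10000 in BEneg, against 1.61, 0.55, 2.20 and 1.16 in TEneg and 0.50, 0.70, 0.66 and 0.73 in TEpos, with BEneg library 3 the low one. The log2 difference was 4.58 ± 0.38 over TEneg (adjusted p = 1.41e-10) and 5.42 ± 0.39 over TEpos (adjusted p = 6.84e-12), and 3.87 over TEneg without library 2. Laptm5 was the lowest of the 7 tested genes in BEneg, at 9.77, 7.09, 7.58 and 14.3 per 10000, against 0.81, 0.091, 1.65 and 0 in TEneg and 1.01, 0, 0 and 0 in TEpos. All 6 TEpos transcripts of Laptm5 were in library 1. Its difference was 4.44 ± 0.67 over TEneg (adjusted p = 4.19e-06) and 5.15 ± 0.67 over TEpos (adjusted p = 3.21e-07). The size is poorly fixed: over TEneg it was 3.84 without library 2 and 5.18 without library 3. Without library 1 the TEpos sums held 0 transcripts of Laptm5, so its level in the other BEneg libraries, 8.93 per 10000, was at least 38.5-fold higher than in TEpos (3 counts over the group).

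Rac2, the GTPase that activates the phagocyte oxidase, reached 22.4, 22.1, 13.5 and 20.6 per 10000 in BEneg, against 0.54, 0.091, 0.55 and 0.58 in TEneg and 1.17, 0.14, 0.33 and 2.55 in TEpos. It was higher in BEneg by 6.13 ± 0.50 than in TEneg (log2, adjusted p = 1.00e-10) and by 4.85 ± 0.41 than in TEpos (adjusted p = 1.35e-10). Without library 2 these were 5.28 over TEneg and 4.24 over TEpos, and without library 4 the difference over TEpos was 5.56. Coro1a, an actin-binding coronin of leukocytes, stood at 13.4, 13.4, 5.05 and 13.4 per 10000 in BEneg, against 0.54, 0.18, 0.55 and 0 in TEneg and 0.67, 0, 0.66 and 0 in TEpos. Here 3 BEneg libraries were almost equal and library 3 was low. Its difference was 5.44 ± 0.62 over TEneg (adjusted p = 4.28e-08) and 5.42 ± 0.59 over TEpos (adjusted p = 1.27e-08), and over TEpos it was 6.09 without library 1 and 4.68 without library 2.

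All 7 genes that entered the fit were thus higher in BEneg than in TEneg and than in TEpos, and Ptprc was too low to be fitted. The 7 passed the filter on low counts through their BEneg sums: of the 8 tumour sums, Cd52 reached 10 transcripts in 2, Tyrobp in 1 and the other 6 genes in 0. Neither this count nor the lack of overlap between BEneg and tumour libraries therefore supports anything by itself. Among all 490 genes fitted, 23.9% were called higher in BEneg than in TEneg and 27.1% higher in BEneg than in TEpos. The median log2 difference over TEneg was 4.94 for the 7 genes and -0.05 for all 490 genes. Over TEpos it was 5.31 for the 7 genes and -0.08 for all 490. The medians of the 7 genes rest on the same filter, so they support nothing by themselves either. With limma on means of wells the 7 differences were smaller, down to 1.92 over TEneg and 1.98 over TEpos, both for Laptm5. These are differences of means of log2(transcripts per 10000 + 1), scaled by each well's total. They are thus not the same quantity as the edgeR differences. Both comparisons share the BEneg sums. Fewer leukocytes and less RNA per leukocyte cannot be told apart in such sums.

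**Figure D2:**
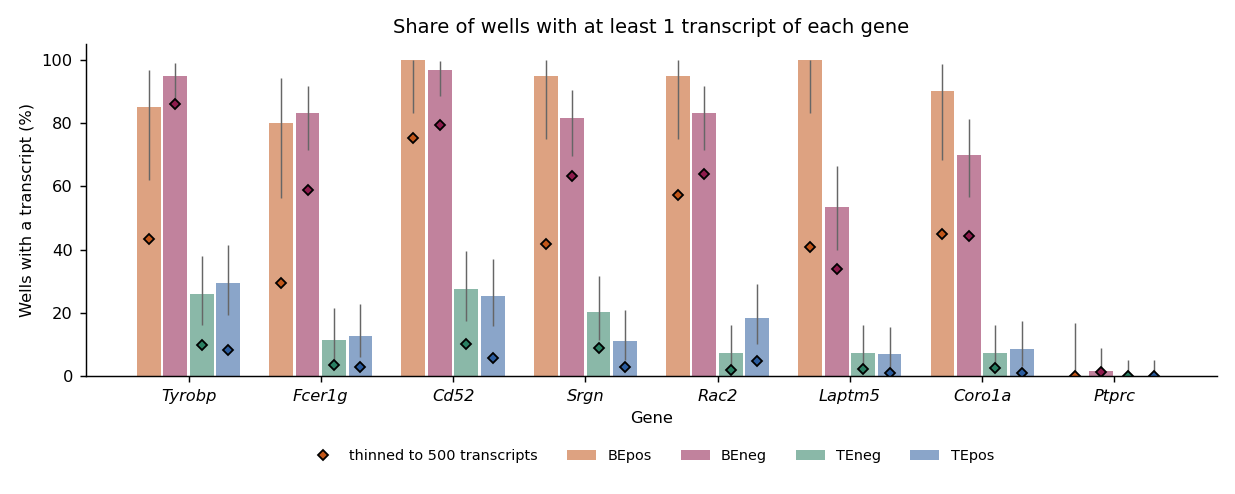
Percent of wells with at least 1 transcript of each gene (bars, exact Clopper-Pearson 95% intervals as lines) by sorted population, with the expected percent at 500 transcripts per well as diamonds (mean of libraries). At equal depth Tyrobp is expected in 43.4% of BEpos wells, against 86% of BEneg wells, while Laptm5 and Coro1a stay close between the blood populations.

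Between blood populations the genes split. The comparison uses library 1 alone, the only one with BEpos wells, so it has no replicate check and no test, and its intervals cover counting error only. The adaptors were lower in BEpos: Tyrobp stood at 13.6 per 10000 in BEpos (102 transcripts) and 53.8 in BEneg (132 transcripts), a ratio of 0.25 (exact 95% interval 0.19 to 0.33), and Fcer1g at 8.92 in BEpos and 23.2 in BEneg, a ratio of 0.38 (0.27 to 0.56). Srgn was also lower, at 12.1 in BEpos and 26.9 in BEneg (ratio 0.45, 0.32 to 0.63), and Cd52 less so, at 29.6 in BEpos and 44 in BEneg (ratio 0.67, 0.53 to 0.85). Rac2 was at 16.4 in BEpos and 22.4 in BEneg (ratio 0.73, 0.53 to 1.02), Coro1a at 12.4 in BEpos and 13.4 in BEneg (0.92, 0.61 to 1.42), and Laptm5 at 10.1 in BEpos and 9.77 in BEneg (1.04, 0.65 to 1.71), and these 3 intervals include 1. Tyrobp and Fcer1g in BEpos lay below all 4 BEneg libraries, whereas BEpos lay within the BEneg range for Cd52, Srgn, Rac2, Laptm5 and Coro1a. The myeloid list moved with the adaptors, at 240 per 10000 in BEpos and 645 to 1285 in the BEneg libraries, and its part in these ratios was not tested.

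In shares of wells the split appeared at equal depth. With all transcripts, Tyrobp was found in 17 of 20 BEpos wells (85%) and 17 of 18 BEneg wells of library 1 (94.4%). Thinned to 500 transcripts, the expected shares were 43.4% in BEpos and 91% in BEneg for Tyrobp, 29.4% in BEpos and 72.9% in BEneg for Fcer1g, and 41.9% in BEpos and 70% in BEneg for Srgn. For Laptm5 they were 40.7% in BEpos and 35.7% in BEneg, although unthinned shares were 100% in BEpos and 61.1% in BEneg. Laptm5 was in all 20 BEpos wells as sequenced, and the unthinned excess over BEneg was mostly gone at equal depth. No BEpos or BEneg well fell short of 500 transcripts, since that was the minimum.

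Within BEpos, the wells with the fewest myeloid transcripts carried little Tyrobp. The 5 BEpos wells with fewer than 10 transcripts of the myeloid list held 3 to 16 T and NK transcripts and 0 to 44 B transcripts each. Their Tyrobp counts were 0, 1, 0, 0 and 1, and their Fcer1g counts 1, 2, 0, 0 and 2. Cd52 was present in every one, with 3, 11, 7, 6 and 10 transcripts, as was Laptm5 with 4, 3, 2, 1 and 2. Coro1a had 3, 0, 5, 3 and 5 transcripts there and Rac2 4, 8, 0, 2 and 6. Summed, Tyrobp stood at 1.34 per 10000 (exact Poisson 95% interval 0.16 to 4.85) in these 5 wells and at 16.3 (13.2 to 19.8) in the other 15 BEpos wells. Cd52 stood at 24.9 (17.5 to 34.3) in the 5 wells and 30.2 (26 to 34.9) in the 15. Coro1a stood at 10.8 (6.14 to 17.5) in the 5 wells and 12.6 (9.94 to 15.8) in the 15, and Laptm5 at 8.06 (4.17 to 14.1) in the 5 wells and 10.5 (8.04 to 13.4) in the 15. Fcer1g stood at 3.36 (1.09 to 7.84) in the 5 wells and 10.1 (7.75 to 13.01) in the 15, Srgn at 7.39 (3.69 to 13.2) in the 5 and 13.1 (10.4 to 16.3) in the 15, and Rac2 at 13.4 (8.21 to 20.8) in the 5 and 16.8 (13.7 to 20.4) in the 15. The interval of Tyrobp in the 5 wells lies below that in the 15, those of Fcer1g touch, and the others overlap more. The limit of 10 was set after the values were seen, and the intervals cover counting error only. This limit is a count and not a level, so depth enters it. The 5 wells held 1056 to 4386 transcripts, and the median BEpos well held 3803. The Tyrobp level of the 5 wells lay within the range of the tumour libraries. Across all 20 BEpos wells Spearman's rho of Tyrobp with the myeloid list was 0.65, all levels being per 10000 and sharing the well's total. It was 0.04 for the other adaptor, Fcer1g, 0.24 for Srgn, 0.22 for Rac2, 0.13 for Laptm5, 0.05 for Cd52 and -0.26 for Coro1a. S100a8 and S100a9 supplied 1334 of the 1804 BEpos transcripts of this list. With its 7 genes known from monocytes, given below, rho was 0.70 for Tyrobp, 0.41 for Laptm5 and 0.40 for Cd52. For Fcer1g, Rac2, Srgn and Coro1a it was 0.30, 0.29, 0.27 and 0.20. Over these wells Fcer1g thus did not follow the whole myeloid list as Tyrobp did. With the B list rho was 0.51 for Fcer1g, 0.43 for Srgn and 0.40 for Coro1a. For Laptm5, Cd52, Tyrobp and Rac2 it was 0.12, 0.05, 0.02 and -0.18. The BEpos well with the most B transcripts, 44, held 0 of Fcer1g.

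**Figure D3:**
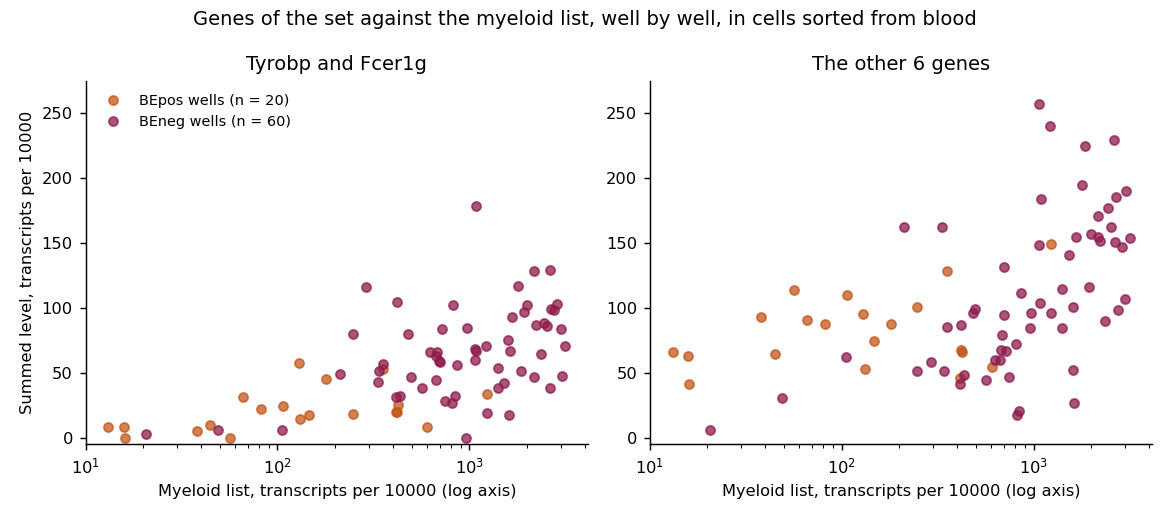
Summed level of Tyrobp and Fcer1g (left) and of the other 6 genes (right) against the level of the myeloid list, in transcripts per 10000 (horizontal axis logarithmic), in each BEpos and BEneg well. The 5 BEpos wells with fewer than 10 myeloid transcripts lie between 0 and 7.92 in the left panel and between 41.5 and 115 in the right panel.

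Among the 60 BEneg wells Srgn and Rac2 tracked neutrophil genes most closely. The myeloid list was divided, after values were seen, into 7 genes known from neutrophils (S100a8, S100a9, Csf3r, Cxcr2, Il1b, Retnlg and Mmp9) and 7 known from monocytes (such as Lyz1, Lyz2, Ly6c2, Ccr2 and Csf1r). Of the 1848 BEneg transcripts of the second group, Lyz1 supplied 1082 and Lyz2 492, so its level mostly reflects these lysozyme genes. Spearman's rho with the first group was 0.66 for Srgn, 0.56 for Rac2, 0.36 for Tyrobp, 0.31 for Fcer1g and 0.24 for Cd52, but -0.08 for Laptm5 and -0.07 for Coro1a. Within single libraries it ran from 0.37 to 0.75 for Srgn and from 0.44 to 0.59 for Rac2, from -0.31 to 0.14 for Laptm5 and from -0.38 to 0.31 for Coro1a, which was positive in library 2 and negative in the other 3. With the second group Coro1a reached 0.33 and Laptm5 0.20, against -0.09 for Srgn and -0.19 for Rac2. Depth moved with these values: rho with transcripts per well was -0.40 for Srgn, -0.40 for Rac2 and -0.36 for the first group. It was 0.36 for the second group, 0.22 for Laptm5 and 0.13 for Coro1a. The part of depth in these values was not tested.

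**Figure D4:**
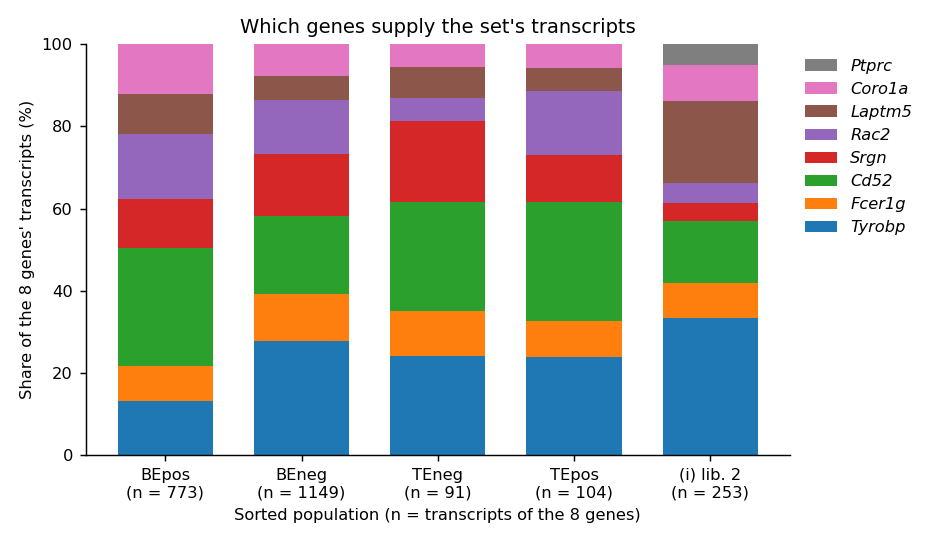
Share of each gene (percent, stacked) in all transcripts of the 8 genes, by sorted population and in library 2 of experiment (i). Tyrobp supplies 13.1% in BEpos, against 27.8% in BEneg, and Laptm5 and Ptprc are largest in library 2 of experiment (i), at 20% and 5.17%.

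Traces in tumour wells were widespread and small. Of 69 TEneg wells 45 (65.2%) and of 71 TEpos wells 44 (62%) held at least 1 transcript of the set, 7 TEneg and 8 TEpos wells held 3 or more of the genes, and no TEneg and 2 TEpos wells held 5 or more. By comparison 52 of 60 BEneg wells held 5 or more. The summed level of the 8 genes had a median of 95.7 per 10000 in BEpos wells (lowest 41), 176 in BEneg wells (lowest 8.83), 5.58 in TEneg wells (highest 47.7) and 4.18 in TEpos wells (highest 24.9). All but 2 BEneg wells were above every TEneg well and all but 1 above every TEpos well. Tyrobp was found in 26.1% of TEneg and 29.6% of TEpos wells, and Laptm5 and Coro1a in 7.0% to 8.5% of either. The labels do not say that leukocytes were kept out of the tumour wells, so these are not taken as cells that lack the genes. Median depths were 1603 transcripts in TEneg and 2064 in TEpos, while BEneg wells had 819.

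Summed over libraries, Tyrobp supplied 13.1% of the set's transcripts in BEpos and 27.8% in BEneg, against 24.2% of 91 in TEneg and 24% of 104 in TEpos. Cd52 supplied 28.7% in BEpos and 19% in BEneg, against 26.4% in TEneg and 28.9% in TEpos. These shares varied between libraries with few transcripts: Cd52 supplied 10.01% to 50.03% in TEneg libraries, and Rac2 led TEpos library 4 with 46.7%. For each 100 transcripts of the neutrophil genes S100a8 and S100a9 the set held 58 in BEpos, 21.2 in BEneg (17.5 to 27 over libraries), 32 in TEneg (21.3 to 60.8) and 27.5 in TEpos (16.3 to 44). S100a8, S100a9 and the set were thus present in tumour sums, at ratios whose outer limits overlapped those of BEneg. In libraries 1 to 4 the ratios were 33.8, 27.4, 60.8 and 21.3 in TEneg. They were 44, 17.3, 34.2 and 16.3 in TEpos. Only that of TEneg library 4 lay within the BEneg range. Transcripts released from other cells and single leukocytes among tumour cells were not tested apart.

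By count, 7 tumour wells held at least 5 transcripts of the set, a limit set after values were seen. TEpos well 20 of library 1 held 16, with 8 of Cd52 and 6 of the genes present, among 12692 transcripts of which 1162 were of epithelial and luminal markers. TEneg well 24 of library 3 held 9 among 2244 transcripts, with 3 of Fcer1g, 3 of Laptm5, 2 of Cd52 and 1 of Rac2, next to 7 T and NK transcripts and 106 epithelial and luminal ones. All 7 wells carried at least 57 epithelial and luminal transcripts. Of the 55 T and NK transcripts in all TEneg wells, Ccl5 supplied 48. TEneg well 3 of library 2 held 35 of the 55 and had 3 transcripts of the set. Counts moved with depth: Spearman's rho of a well's count with its transcripts was 0.29 in TEneg and 0.49 in TEpos, and TEneg well 25 of library 2 held 7 of 61227 transcripts, 1.14 per 10000, below the TEneg median. By level the highest TEneg well, well 9 of library 3, held 3 of 630 transcripts.

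No member was called between TEneg and TEpos. edgeR's quasi-likelihood test called 0 of the 7 genes, with 0 at an unadjusted p under 0.05, and DESeq2 and limma also called 0; of all 490 genes 6.33% were called, 4.69% higher and 1.63% lower in TEneg. The largest differences were -1.28 ± 0.75 for Rac2 (log2, TEneg minus TEpos; 95% interval -2.82 to 0.26; adjusted p = 0.38) and 0.85 ± 0.57 for Srgn (-0.33 to 2.03; adjusted p = 0.47). Tyrobp differed by 0.15 ± 0.45 (-0.78 to 1.08; adjusted p = 0.99). The intervals leave room for differences of more than 1 log2 unit in either direction for Fcer1g, Laptm5 and Coro1a. Endothelial genes were at 21.9 per 10000 in TEneg (14.6 to 30.6 over libraries) and 4.51 in TEpos (2.56 to 7.69), and their part in the members' values was not tested.

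**Figure D5:**
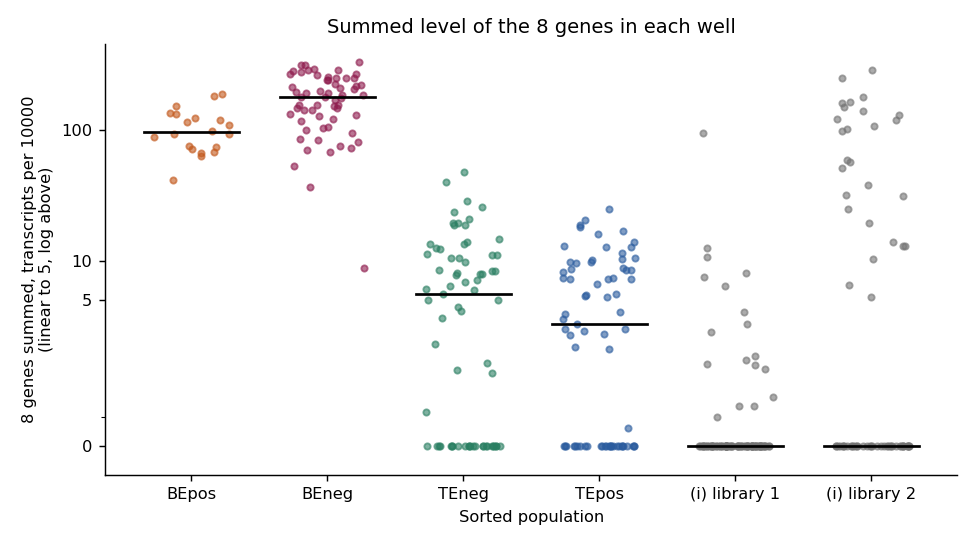
Summed level of the 8 genes in each well (transcripts per 10000, linear up to 5 and logarithmic above) by sorted population and in libraries 1 and 2 of experiment (i), with medians as lines. In library 2 of experiment (i) the median is 0 but 11 wells with at least 10 transcripts of the set lie between 97.1 and 286. These 11 wells were picked by their count of the set, which fixes a high level in advance. All BEpos wells, which were not picked so, lie at 41 to 186, and the ranges are not compared.

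Experiment (i) showed the set in a different setting. In library 1, 95 wells held 48 transcripts of the 8 genes, 1.10 per 10000, and 23 of the 48 were in 1 well, which had 31 myeloid, 4 B, 3 epithelial and 20 luminal transcripts. In library 2, 65 wells held 253 transcripts, 36.1 per 10000, in 27 wells (41.5%). Of these, 211 were in 11 wells with at least 10 transcripts each, a limit set after values were seen, where the set reached 168 per 10000. The same 11 wells held 9 epithelial and 36 luminal mammary transcripts, against 244 epithelial and 867 luminal ones in the other 54 wells. They also held 173 transcripts of the myeloid list, with Lyz2 at 56 and Csf1r at 25, but 0 of S100a8 and 0 of S100a9, and 32 transcripts of the B list. Only 2 genes of the B list were measured in library 2, and all 32 transcripts were of Cd74. They thus rest on 1 gene, which was not among the B genes measured in experiment (ii), and do not name a B cell. Wells 9, 67, 70 and 86 held 8, 8, 6 and 9 of those Cd74 transcripts. Of these, wells 9, 67 and 70 had 4, 3 and 6 myeloid transcripts beside 5, 3 and 4 of Tyrobp. In these wells Tyrobp was thus present with few myeloid transcripts. Wells of 500 or more transcripts in library 2 thus include some with many leukocyte and few epithelial transcripts, against their label, and without the neutrophil genes that led in BEneg.

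The make-up of the set differed there as well. In library 2 Tyrobp supplied 85 of the 253 transcripts (33.5%), Laptm5 50 (20%), Cd52 38, Coro1a 22, Fcer1g 21, Ptprc 13, Rac2 12 and Srgn 11 (4.37%). In BEneg, by contrast, Srgn supplied 15%, Rac2 13.1% and Laptm5 5.87%. Ptprc stood at 1.86 per 10000 (exact Poisson interval 0.99 to 3.18) and in 7 of 65 wells of library 2, against 3 transcripts in the 95 wells of library 1. The experiments have separate tables, so levels are set side by side and were not tested.

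The genes that work with the members were mostly too low to be fitted. Those fitted passed the low-count filter largely through their BEneg sums, as the members did, so their calls support nothing by themselves; over all genes 23.9% were called higher over TEneg and 27.1% over TEpos. Of 12 ITAM signalling genes 6 were measured and 0 fitted. The kinase Fgr had 21 transcripts in BEpos, 34 in BEneg, 2 in TEneg and 3 in TEpos, the adaptor Lcp2 10, 17, 0 and 1 in the same order, Plcg2 4, 8, 11 and 12, Btk 2, 3, 0 and 1, and Syk 0, 1, 0 and 0. Of 18 receptors that pair with Tyrobp or Fcer1g 13 were measured and 1, the Fc receptor Fcgr3, was fitted. It was higher in BEneg than in TEneg by 4.33 ± 0.71 (log2, edgeR adjusted p = 1.32e-05) and than in TEpos by 5.98 ± 0.80 (adjusted p = 4.48e-07).

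In library 1, which alone has both blood populations, the 13 receptors summed to 7.23 per 10000 in BEpos and 19.2 in BEneg. Single receptors differed in direction at these low counts. Fcgr3 was at 1.07 per 10000 in BEpos (8 transcripts) and 6.13 in BEneg (15), Sirpb1b at 0.53 in BEpos (4) and 3.27 in BEneg (8), and Cd300lb at 0.27 in BEpos (2) and 2.04 in BEneg (5). Fcgr4 was at 1.75 in BEpos (13) and 0.82 in BEneg (2), and Clec4e at 1.48 in BEpos (11) and 1.63 in BEneg (4), both named after their values were seen. Trem1 had 0 transcripts in BEpos and 0 in BEneg, Trem3 0 in BEpos and 3 in BEneg, and Sirpb1a 1 in BEpos and 0 in BEneg.

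All 5 subunits of the phagocyte oxidase, the enzyme that Rac2 activates, were measured, and the membrane subunits Cybb and Cyba were fitted. Cybb was higher in BEneg by 3.99 ± 0.64 than in TEneg (log2, edgeR adjusted p = 9.07e-06) and by 5.31 ± 0.69 than in TEpos (adjusted p = 2.95e-07), and Cyba by 3.73 ± 0.60 (adjusted p = 9.64e-06) and 3.86 ± 0.58 (adjusted p = 2.83e-06). In library 1 the 5 subunits summed to 11.8 per 10000 in BEpos and 34.5 in BEneg, while Rac2 itself was at 16.4 in BEpos and 22.4 in BEneg. Of 20 other pan-leukocyte genes 17 were measured and 4 were fitted and called higher in BEneg in both comparisons: the tetraspanin Cd53, Arhgdib, the integrin chain Itgb2 and Cytip, with log2 differences of 4.41, 4.64, 4.69 and 1.97 over TEneg. In library 1 the 17 genes summed to 71.6 per 10000 in BEpos and 72.4 in BEneg, with no test. Among them Cd53 was at 14.7 in BEpos (111 transcripts) and 6.95 in BEneg (17), Arhgdib at 7.24 in BEpos and 15.2 in BEneg, Cd37 at 3.61 in BEpos and 3.27 in BEneg, Cd48 at 3.08 in BEpos and 3.27 in BEneg, and Lsp1 had 1 transcript in BEpos and 0 in BEneg.

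Relatives of the members gave mixed values, and 2 of 7 measured were fitted. Rac1 was at 4.02 per 10000 in BEpos, 7.98 in BEneg, 6.35 in TEneg and 4.63 in TEpos. It was called higher in BEneg than in TEpos (log2 difference 1.10 ± 0.31, edgeR adjusted p = 0.0042), while its difference from TEneg was 0.34 ± 0.30 (adjusted p = 0.40). Laptm4a was at 2.80 in BEpos, 6.90 in BEneg, 10.4 in TEneg and 7.47 in TEpos, with differences of -0.36 ± 0.29 and 0.20 ± 0.30 from TEneg and TEpos that were not called. Coro1b was at 1.07, 4.12, 1.56 and 1.01 per 10000, Coro1c at 0.27, 2.07, 0.71 and 0.42 and Rac3 at 0, 0, 0.50 and 0.37 and Laptm4b at 0.13, 0.14, 0.71 and 0.74, each in the order BEpos, BEneg, TEneg and TEpos. Hcst, the adaptor DAP10 of natural killer and T cells, was in library 1 at 4.42 per 10000 in BEpos (33 transcripts) and 1.63 in BEneg (4 transcripts), where Tyrobp was lower in BEpos, and had 2 transcripts each in TEneg and TEpos.

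Over the 12 sums of BEneg, TEneg and TEpos, the genes whose log2(transcripts per 10000 + 1) was most like the mean of the 7 members were S100a8 (Pearson's r = 0.991), Tmsb4x (0.990), Lyz1 (0.989), Ccl6 (0.989) and Alox5ap (0.987). The 12 points share libraries and fall into 2 blocks, blood and tumour. In BEpos, which the measure did not use, Tmsb4x was at 160 per 10000 against 196 in BEneg, and S100a8 at 77.5 in BEpos against 360 in BEneg.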

How the data were processed

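CEL-seq transcripts of single sorted wells were analysed. The values the authors deposited are expected counts, without normalization: barcode counts k corrected for repeated use of 256 barcodes, as every value converts back to a whole k within 3.13e-13. BWA 0.6.2-r126 and mm10 are named per the submitters' processing notes, with the counter not given in the sources used here. Spike-ins were left out. Wells of at least 500 transcripts were summed per library and population where at least 3 were left, and sums were rounded. The library is the replicate. No source ties a library to its own mouse: the p-values cover the spread between libraries only, which may be technical.

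BEneg, TEneg and TEpos sums were fitted together in edgeR 4.0.16 (quasi-likelihood test, TMM, filterByExpr, 490 genes) with library as a block, and calls have a Benjamini-Hochberg adjusted p under 0.05. Standard errors are the log2 difference over the root of F. The pairing is the design: the same library holds the populations, and residuals within a library correlated at 0.061 to 0.35. Sums of 1 population differed beyond sampling noise (chi-square per degree of freedom 1.87 to 4.35). Well positions, and with them cell barcodes, are reused: 72 are shared by the 4 libraries. Each well was meant for 1 cell, so no doublet caller was run. The alternatives included DESeq2 1.42.0 and limma 3.58.1 under R 4.3.3, and the procedure was tested on simulated data. Intervals are 95%, and those of levels, shares and the BEpos ratios cover counting error only. Members, gene lists and the rule for naming genes (all members, up to 5 examples of a list in its order, relatives and the 5 nearest genes) were chosen with earlier results of these data known. Genes and coordinates are GENCODE M21 on GRCm38.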

Additional observations from a re-analysis of the deposited data

Results flagged for a closer look

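A library stood far from the other 3 of its population, by the gap to its neighbour, in 5 of 48 groups examined. The limit used gives about 1 in 20 by chance for normal values. Some groups here hold few transcripts or ties at 0, so that rate need not apply to them. Srgn was found in 54.5% of BEneg wells of library 3. Coro1a was at 5.05 per 10000 in BEneg library 3, with the other BEneg libraries near 13.4. Rac2 was at 0.091 per 10000 in TEneg library 2, which holds the well of 61227 transcripts. TEneg libraries 1 to 4 held 2, 1, 1 and 1 transcripts of Rac2. Laptm5 was at 1.01 per 10000, and in 27.8% of wells, in TEpos library 1, and at 0 in the other TEpos libraries. Both of these values rest on the same 6 transcripts.

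Signal also appeared outside the wells used. BEneg wells under 500 transcripts (36 wells) held the 8 genes at 213 per 10000, and BEpos wells under 500 (4 wells) at 99.5, against 20.9 in 27 such TEneg wells and 0 transcripts in 25 such TEpos wells. Library 3 of experiment (i), labelled E-cadherin positive tumour, had 1 well of 500 transcripts or more. Its 96 wells together held 266 transcripts of the set, 189 per 10000, beside 635 of the myeloid list, 4 of the epithelial list and 34 of the luminal list among 14046 transcripts. Tyrobp supplied 27.2% of the 266, Cd52 19.2% and Ptprc 4.90%.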

How the results depend on the processing

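All 7 fitted members were called higher in BEneg than in TEneg and than in TEpos, and 0 in TEneg against TEpos, under every alternative run, among them each library left out, DESeq2, limma on means of wells, and no replicate block, that is without the paired libraries (7, 7 and 0 members). Their log2 differences ran from 1.92 (Laptm5, limma on means of wells) to 6.39 over TEneg and from 1.98 (Laptm5, the same) to 8.15 over TEpos. The last is Laptm5 without library 1, where TEpos holds 0 transcripts and the fitted value depends on the prior count. The limma values are on the scale of log2(transcripts per 10000 + 1), so they are not the same quantity as the others. Over TEpos, Laptm5 was 6.13 with DESeq2, and Fcer1g and Srgn were 6.12 and 4.57 with wells of at least 1500 transcripts. TEneg against TEpos ran from -1.61 to 3.45 with signs that changed for Tyrobp, Cd52, Laptm5 and Coro1a; 1 member had an unadjusted p under 0.05 without library 2, without wells over 20000 transcripts and with no filter on low counts.

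Counts over all genes moved more. For BEneg against TEneg, 201 genes were called, against 461 with no filter, 123 with wells of at least 1500 transcripts, 315 with limma on means of wells, and 168 to 223 with a library left out. For BEneg against TEpos, 236 were called, against 581, 133, 374 and 193 to 258. For TEneg against TEpos, 31 were called, against 99 with no filter, 20 with no replicate block, 55 without wells over 20000 transcripts, 19 without library 1, and 19 to 42 over the libraries left out. Scaling by total transcripts alone moved the median of all genes to -0.49 over TEneg and -0.48 over TEpos, with 99 genes higher and 187 lower in BEneg than in TEneg, against 117 and 84, and 110 and 188 over TEpos, against 133 and 103. Limma on means of wells gave 97 higher and 218 lower over TEneg, 95 and 279 over TEpos, and 16 and 27 for TEneg against TEpos, where the fit gave 23 and 8. The cause was not tested. Shares of wells moved beyond the spread between libraries in 14 of 24 cases when thinned to 500 transcripts and in 7 of 24 with at least 1500, and in 0 of 24 with each library left out. Ptprc rests on 1 transcript in experiment (ii), and BEpos on 1 library.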
